A study of Homo sapiens with 6 samples.

Results

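The genes described here are the ligands and receptors of the tumour necrosis factor (TNF) superfamily, the TRAF adaptors that bind these receptors, and the ubiquitin ligases BIRC2 and BIRC3. They were chosen by symbol: every gene named TNFSF or TNFRSF with a number and at most 1 letter, together with TNF, LTA, LTB, LTBR, CD27, CD70, FAS, TRAF1 to TRAF6, BIRC2 and BIRC3. The choice gave 46 of 35009 genes, made up of 15 ligands, 23 receptors and 8 TRAF or BIRC genes. FASLG, which the choice also names, had no entry among the 35009 genes.

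The 6 libraries hold polyadenylated RNA of macrophages made from THP-1, a cell line from a human monocytic leukaemia. Of these, 3 ox-LDL libraries are labelled siMCT4, with the genotype MCT4 deficiency, and the other 3 are ox-LDL libraries with the genotype control. Oxidised low-density lipoprotein (ox-LDL), present in both groups, is the altered lipoprotein with which arterial macrophages load themselves as they turn into foam cells. MCT4, encoded by SLC16A3, is a transporter that exports lactate from cells. The labels do not say whether the control cells received an siRNA, so the loss of MCT4 and the presence of an siRNA cannot be told apart. They also do not say that the libraries came from separate cultures, so that p-values reflect only how much these libraries vary, which may be technical.

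SLC16A3 had 691, 768 and 949 counts in the siMCT4 libraries, against 7708, 6428 and 6848 counts in the control libraries. The groups did not overlap, and the log2 change was -3.20 (SE 0.10). The exact permutation test (two-sided, 20 assignments of the libraries) gave p = 0.1, the smallest that 3 libraries against 3 allow.

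Ligands of the superfamily act as trimers, on the cell surface or after shedding, and bind receptors with cysteine-rich extracellular domains. Receptors with a death domain, such as TNFRSF1A, FAS, TNFRSF10A and TNFRSF10B, can recruit FADD and the protease CASP8 and start cell death. Others bind TRAF adaptors, and TRAF2 brings in BIRC2 and BIRC3, which direct the signal towards NF-kB and MAP kinases and restrain killing; in macrophages the family is best known for driving inflammation and for controlling survival.

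Of the 46 members, 33 passed the filter on low counts and were tested. Of the 13 that did not, 12 had at most 31 counts in any library, and TNFRSF11B had many counts but in only 2 libraries, where the filter asks for 3. Of the 33, 15 were higher in siMCT4, 6 were lower and 12 did not pass (quasi-likelihood test of edgeR, Benjamini-Hochberg adjusted p under 0.05 over 19944 genes). Of the tested members 45.5% were higher and 18.2% lower, against 20.6% higher and 20.8% lower among all tested genes; whether the members differ from other genes of their level was not tested. Changes of at least 2-fold were called higher for 8 members and lower for 3, beside 6.36% and 6.71% of all tested genes. The median log2 change was 0.16 over the tested members and -0.01 over all tested genes. The groups of libraries did not overlap for 23 of the 33, a number that includes all 21 called members. The share of all tested genes without overlap was not computed, so this number does not set the members apart from other genes. By role, 4 of 10 tested ligands were higher and 2 lower, 6 of 15 tested receptors were higher and 3 lower, and 5 of 8 TRAF or BIRC genes were higher and 1 lower. The balance of all calls was different with limma on the deposited FPKM, which changes both the test and the scale. Limma on log2(FPKM + 0.1) called 5192 genes higher and 3475 lower, and limma on log2(TPM + 1), which moved the median of all genes to 0.12, called 6245 higher and 2886 lower, beside 4116 higher and 4144 lower by edgeR. The members called by these were 17 higher and 6 lower on the FPKM scale, and 18 higher and 5 lower on the TPM scale. The plot of log2 changes shows each tested member with its error.

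**Figure D1:**
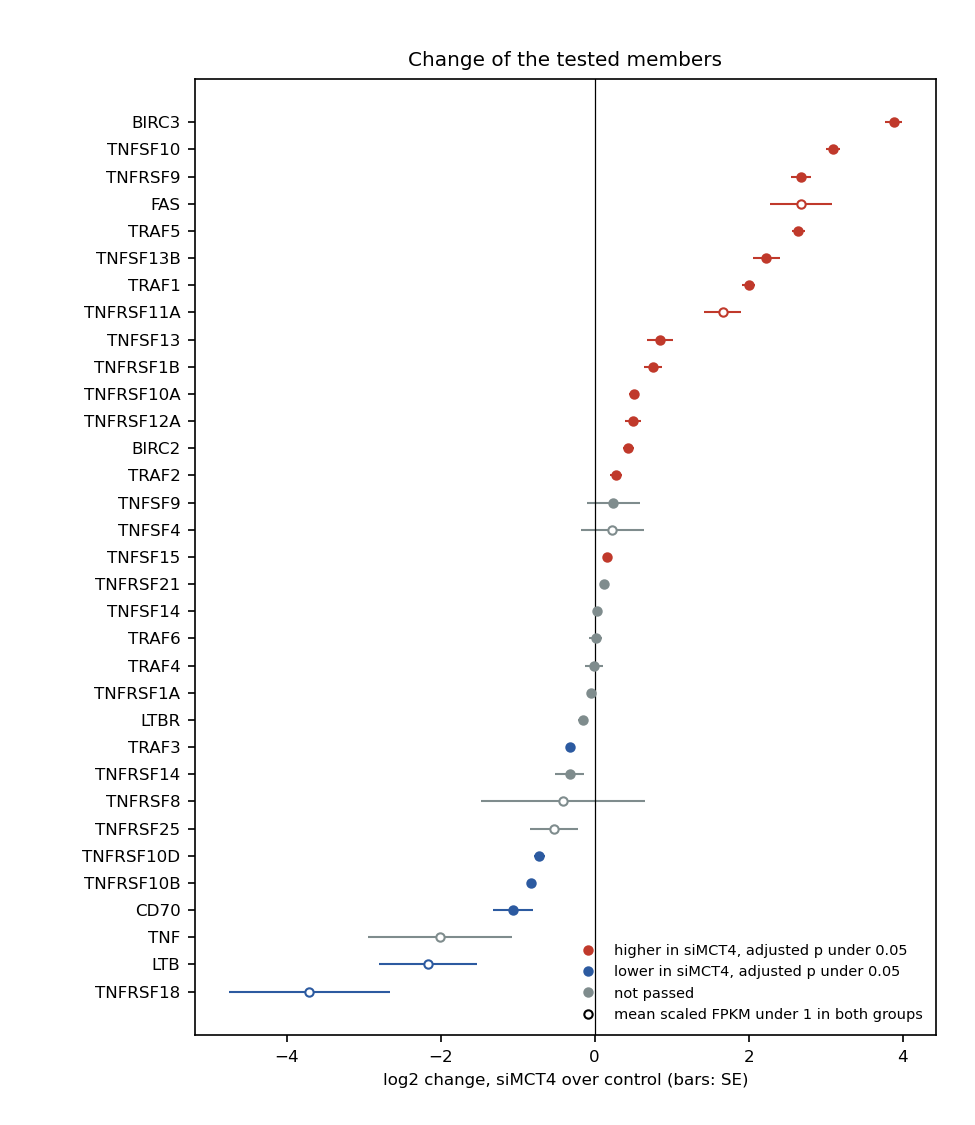
Log2 change of the 33 tested members, siMCT4 over control, from edgeR, with bars for the standard error; red is higher, blue is lower at an adjusted p under 0.05, grey did not pass, and open circles mark a mean scaled FPKM under 1 in both groups. BIRC3 at 3.88 and TNFSF10 at 3.09 stand at the top, and the wide bars of TNF, LTB, TNFRSF18 and TNFRSF8 belong to members with few counts.

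Levels are given as scaled FPKM, the deposited fragments per kilobase of gene per 1000000 fragments put on the between-library scale of the test. The scaling makes libraries comparable, while comparisons between genes rest on the gene lengths the authors used. A mean scaled FPKM of at least 1 in one group was reached by 26 members. In bulk RNA, fewer cells of a type and less RNA per cell cannot be told apart.

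Libraries 1 and 2 of the siMCT4 group stood apart from library 3. In these 2 libraries alone, 19 genes had at least 200 counts with at most 10 in every other library, while other choices of 1 library or of 2 siMCT4 libraries gave 0 or 1 such gene. TNFRSF11B, which encodes the secreted decoy receptor osteoprotegerin, is the only member among the 19. TNFRSF11B had 1934, 1569 and 0 counts in siMCT4, against 0, 0 and 0 in the controls, and a library with 0 counts allows up to 3. The other 18, picked after their values were seen, include IGFBP5, COL1A2, AKR1B10, MYH1, MYH2, CALD1, DKK3, EGFR and ACTA1, which muscle, connective tissue or epithelium are known to express. Their summed level was 156, 131 and 0.127 CPM (counts per 1000000 counts of the library) in siMCT4, against 0.298, 0.297 and 0.222 CPM in the controls. Of the macrophage markers examined, 8 of 8 were present, CD68 at 58701 to 70510 counts in every library, and their sum was 2873 to 3017 CPM in siMCT4 against 3799 to 3904 CPM in the controls, with 6 of 8 lower. CD14 had 157, 184 and 302 counts in siMCT4, against 834, 755 and 823 in the controls. Epithelial markers summed to 4.92, 2.59 and 0.24 CPM in siMCT4, against 0.194, 0.141 and 0.285 CPM in the controls, with KRT18 at 172, 112 and 0 counts in siMCT4 and 0, 0 and 4 in the controls. Markers of fibroblasts and smooth muscle summed to 6.11, 6.32 and 8.01 CPM in siMCT4, against 6.61, 5.63 and 7.19 CPM in the controls. The sum hides genes that did not move alike. COL1A1 had 182, 175 and 443 counts in siMCT4, against 322, 283 and 399 in the controls. PDGFRB had 170, 234 and 58 counts in siMCT4, against 121, 77 and 51 in the controls. ACTA2 had 38, 28 and 67 counts in siMCT4, against 0, 0 and 4 in the controls, and COL3A1 had at most 2 counts. Of the T cell and B cell markers, CD8A had at most 4 counts, and CD79A had 144 to 180 counts in siMCT4 against 16 to 26 in the controls. Of the endothelial markers, PECAM1 had 21641 to 24137 counts in siMCT4 against 33364 to 36342 in the controls, and KDR had at most 22 counts. The part of other cells in the members' values was not tested. Each result was therefore also computed with siMCT4 library 3 alone against the 3 controls, a fit chosen after the values were seen that takes the lone library to vary as the controls do. It called 13 of 35 tested members higher and 4 lower, beside 15.0% higher and 16.2% lower over all genes tested, and 16 of the 21 called members had the same call in it.

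**Figure D2:**
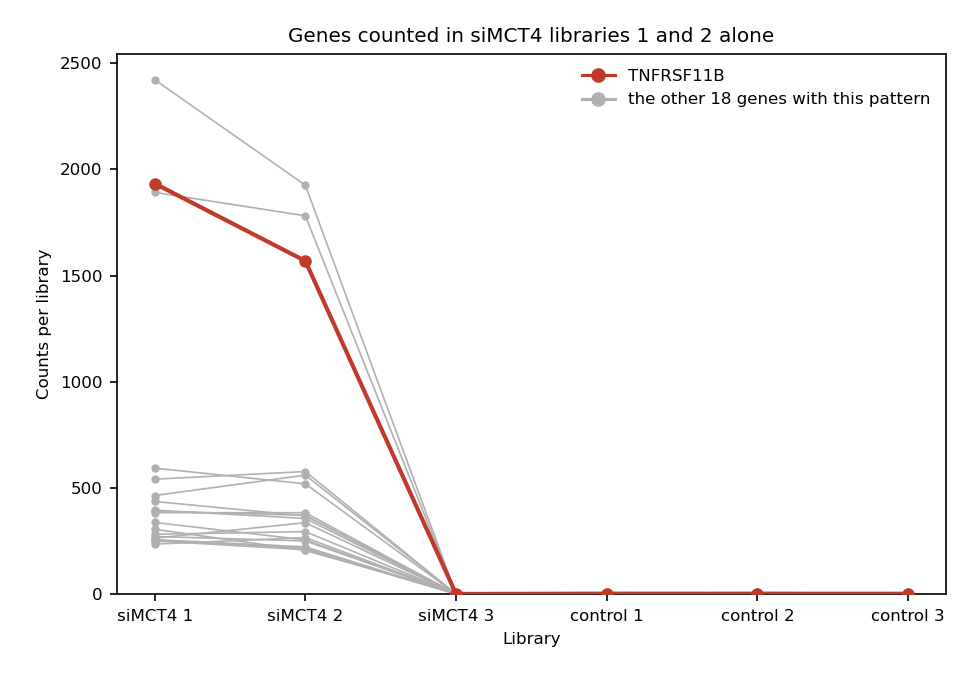
Counts per library of the 19 genes with at least 200 counts in siMCT4 libraries 1 and 2 and at most 10 in the others; each line joins the counts of 1 gene, with TNFRSF11B in red. TNFRSF11B reached 1934 and 1569 counts in siMCT4 libraries 1 and 2 and 0 in siMCT4 library 3 and in the controls.

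Promoter sequence was at hand for 34 of the members, from RefSeq (GRCh38.p14), as 250 bases before to 50 bases after each gene's start. These were searched on both strands for the core of the interferon regulatory factor element, AANNGAAA, and for the NF-kB consensus, since interferon or NF-kB is a well known inducer of BIRC3, TNFSF10, TNFSF13B and TNFRSF9. The interferon core was found in 4 of 13 members called higher and in 23.5% of the 34 members, against 23.2% of 27305 promoters. The NF-kB consensus was found in 2 of the 13 called higher, in 2 of the 3 called lower and in 7 of the 34 members, against 10.8% of all promoters. Those called lower with a match were LTB and TRAF3, and 3 of the 12 that did not pass also held a match. A match is a run of letters and not a measured site. The following are the promoters of the 4 members more than 4-fold higher that hold a match, 5′ to 3′ on the strand of the gene, with the matches in capitals. Of the other members at least 4.0-fold higher, FAS, TRAF1 and TRAF5, none held a match in its window.
BIRC3: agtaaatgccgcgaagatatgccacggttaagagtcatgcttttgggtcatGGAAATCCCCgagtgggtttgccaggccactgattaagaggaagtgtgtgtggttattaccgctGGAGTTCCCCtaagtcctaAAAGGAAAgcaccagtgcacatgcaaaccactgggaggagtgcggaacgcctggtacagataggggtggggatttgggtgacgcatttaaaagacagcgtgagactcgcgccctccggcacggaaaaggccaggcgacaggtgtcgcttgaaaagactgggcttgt
TNFRSF9: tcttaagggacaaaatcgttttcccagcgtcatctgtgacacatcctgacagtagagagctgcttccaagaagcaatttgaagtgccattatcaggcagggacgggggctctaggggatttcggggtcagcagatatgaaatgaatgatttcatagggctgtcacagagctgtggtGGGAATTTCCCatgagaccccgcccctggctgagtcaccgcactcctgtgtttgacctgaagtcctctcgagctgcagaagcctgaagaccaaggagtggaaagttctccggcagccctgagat
TNFSF10: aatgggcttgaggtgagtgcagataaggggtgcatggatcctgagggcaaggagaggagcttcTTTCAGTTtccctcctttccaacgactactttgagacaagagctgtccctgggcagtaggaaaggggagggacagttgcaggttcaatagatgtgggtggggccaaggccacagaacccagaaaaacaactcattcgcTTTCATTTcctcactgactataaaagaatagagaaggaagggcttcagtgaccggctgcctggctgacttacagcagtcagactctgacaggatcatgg
TNFSF13B: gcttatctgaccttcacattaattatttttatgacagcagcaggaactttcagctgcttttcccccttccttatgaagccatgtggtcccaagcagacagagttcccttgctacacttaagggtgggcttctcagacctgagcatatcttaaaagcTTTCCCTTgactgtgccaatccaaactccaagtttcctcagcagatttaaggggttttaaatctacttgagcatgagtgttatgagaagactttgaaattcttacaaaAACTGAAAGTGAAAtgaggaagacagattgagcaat
The BIRC3 promoter (chr11:102317234-102317533, plus strand) held NF-kB matches 199 and 135 bases before the start and an interferon core 116 bases before it. The TNFRSF9 promoter (chr1:7940790-7941089, minus strand) held a pair of NF-kB matches that overlap, 74 and 73 bases before the start. The TNFSF10 promoter (chr3:172523381-172523680, minus strand) held interferon cores 187 and 49 bases before the start. The TNFSF13B promoter (chr13:108269379-108269678, plus strand) held interferon cores 94 bases before the start and, overlapping each other, 15 and 21 bases after it. The RefSeq starts lie within the deposited gene spans, 34 bases from the outer end for BIRC3, 45 for TNFSF10, 2326 for TNFRSF9 and 18389 for TNFSF13B, so the deposited annotation holds longer transcripts of the last 2.

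Among the ligands, TNFSF10 and TNFSF13B were the most changed, and TNFSF14 was the most abundant. TNFSF10, the death ligand TRAIL, measured 5.98, 5.93 and 6.22 scaled FPKM in siMCT4, against 0.717, 0.683 and 0.722 in the controls. All 3 siMCT4 libraries lay far above every control, an 8.54-fold difference (log2 3.09, SE 0.09, adjusted p = 9.07e-07). TNFSF13B, the B cell survival factor BAFF, measured 6.99, 7.24 and 9.95 scaled FPKM in siMCT4, against 1.66, 1.98 and 1.51 in the controls. It was 4.69-fold higher (log2 2.23, SE 0.17, adjusted p = 6.07e-05), and siMCT4 library 3 was the highest of its group.

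TNFSF13, or APRIL, shares receptors with BAFF and measured 3.10, 2.96 and 2.26 scaled FPKM in siMCT4, against 1.37, 1.61 and 1.63 in the controls. The groups did not overlap and it was 1.80-fold higher (log2 0.85, SE 0.17, adjusted p = 0.00584). Library 3 alone gave 0.57 on the log2 scale and an adjusted p of 0.0823. TNFSF15, or TL1A, which costimulates T cells through TNFRSF25, measured 12.5, 11.4 and 12.5 scaled FPKM in siMCT4, against 11.1, 10.8 and 10.7 in the controls. This 1.12-fold difference passed narrowly (log2 0.16, adjusted p = 0.0428). It did not pass without siMCT4 library 1 (adjusted p = 0.094), nor without control library 1 (0.0663), 2 (0.124) or 3 (0.134), nor with a correction for the GC content of transcripts (0.168).

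CD70, the ligand of CD27, was lower, at 2.52, 1.54 and 3.16 scaled FPKM in siMCT4, against 4.52, 4.69 and 5.80 in the controls. The log2 change was -1.06 (SE 0.26, adjusted p = 0.0149), with every siMCT4 library below every control. The call was lost without control library 3 (log2 -0.94, adjusted p = 0.0617) and with siMCT4 library 3 alone (log2 -0.64, adjusted p = 0.0625). LTB, or lymphotoxin beta, which anchors LTA at the cell surface, was scarce, with 25, 12 and 4 counts in siMCT4, against 63, 38 and 79 in the controls. The log2 change was -2.17 (SE 0.64, adjusted p = 0.0292), and no siMCT4 count reached the lowest control count. That call was lost without siMCT4 library 2 (adjusted p = 0.0924), control library 1 (0.080) or control library 3 (0.107) and with the GC correction (0.127). The log2 change was -2.98 without siMCT4 library 1 and -1.69 without siMCT4 library 3, and it was -3.98 with siMCT4 library 3 alone.

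TNFSF14, or LIGHT, which signals through TNFRSF14 and LTBR, measured 52.7, 53.1 and 49.6 scaled FPKM in siMCT4, against 50.4, 51.4 and 50.6 in the controls. The groups overlapped, and the log2 difference of 0.03 (SE 0.04) did not pass (adjusted p = 0.644). On the FPKM and TPM scales it was called higher by 0.13 to 0.23 (adjusted p of 0.00476 to 0.0492). TNFSF9, the ligand of the costimulatory receptor TNFRSF9, measured 2.42, 2.59 and 5.92 scaled FPKM in siMCT4, against 3.10, 2.77 and 3.38 in the controls. Libraries 1 and 2 lay below the controls and library 3 above them, and the difference did not pass (log2 0.24, adjusted p = 0.614). Without library 3 it was -0.27 on the log2 scale, and with library 3 alone it was 0.96 with an adjusted p of 0.00739. TNFSF4, or OX40 ligand, which costimulates T cells, had 99, 60 and 81 counts in siMCT4, against 37, 99 and 59 in the controls (log2 0.23, adjusted p = 0.695).

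TNF itself, the founding cytokine of the family, was almost absent, with 0, 11 and 8 counts in siMCT4, against 19, 14 and 39 in the controls. Its log2 change of -2.01 did not pass (SE 0.93, adjusted p = 0.128), although no siMCT4 count reached the lowest control count. The other ligands were too low to test. LTA, TNFSF8, TNFSF11, TNFSF12 and TNFSF18 had at most 10 counts in any library.

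Levels of the 25 tested members with a mean of at least 1 are drawn by role in the plot of levels by library.

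**Figure D3:**
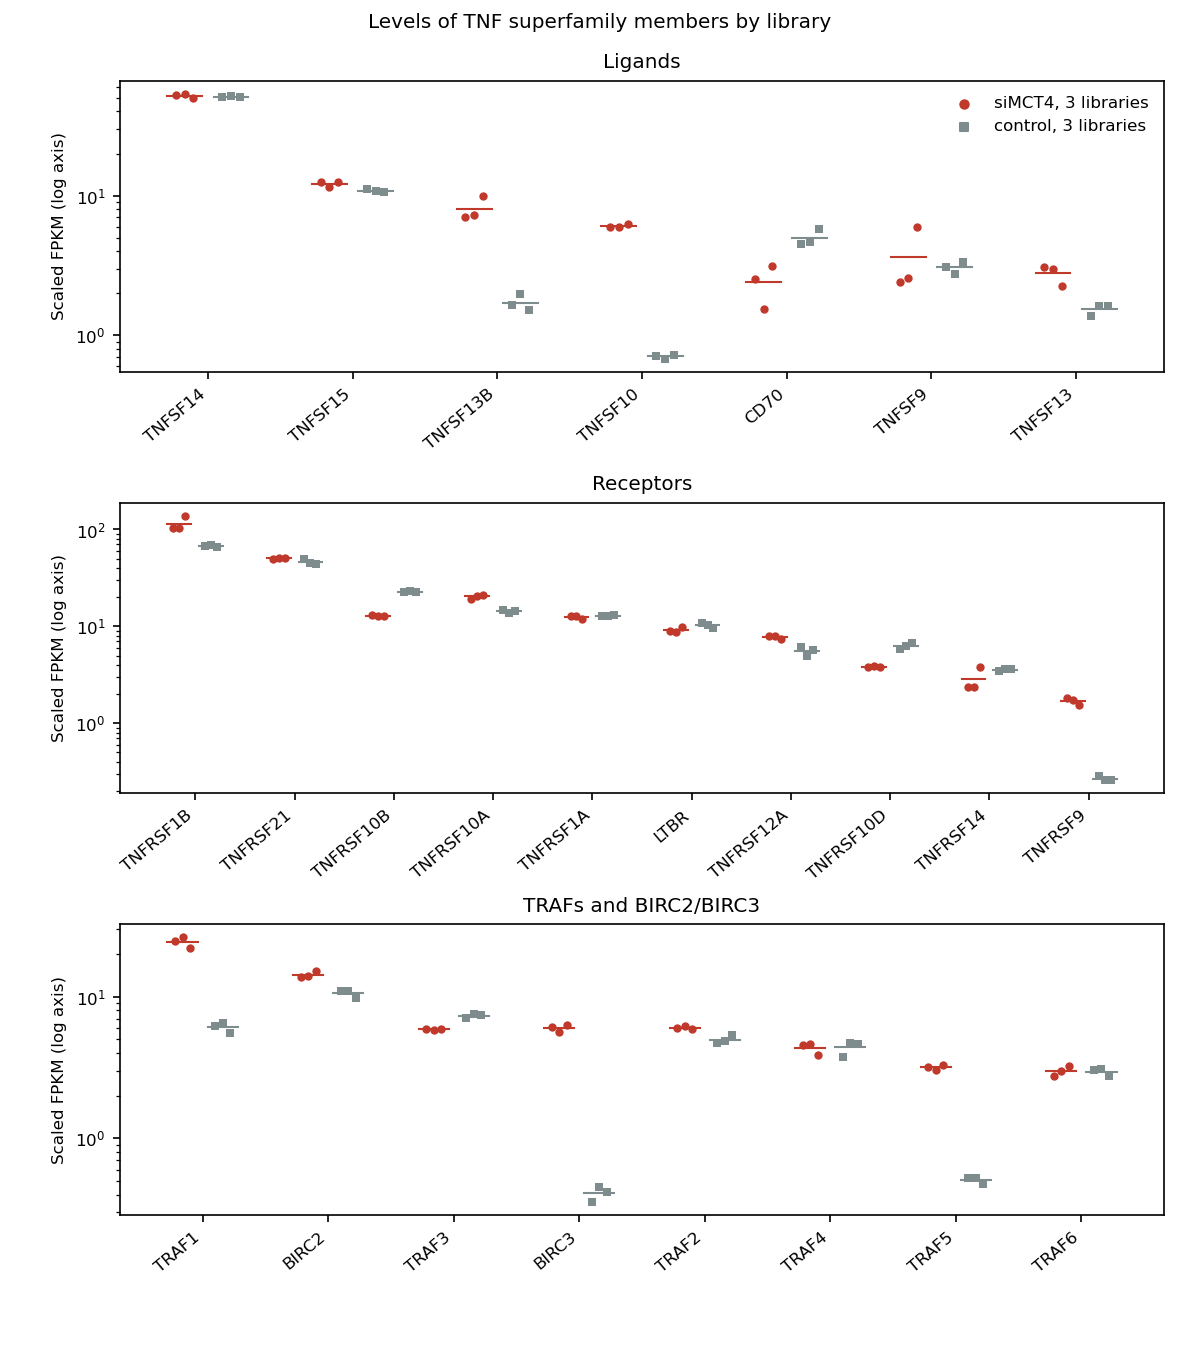
Scaled FPKM on a log axis for the 25 tested members with a mean of at least 1 in one group; each point is a library, red circles siMCT4 and grey squares control, and the lines are group means. TNFSF14, TNFRSF1B and TRAF1 are the highest in siMCT4 of their panels, at means of 51.8, 115 and 24.3, and the control points of BIRC3, TRAF5, TNFSF10 and TNFRSF9 lie under 1.

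TNFRSF1B was the most abundant receptor and was higher, while TNFRSF1A did not pass. TNFRSF1B, the TNF receptor without a death domain, measured 104, 103 and 138 scaled FPKM in siMCT4, against 67.8, 70.0 and 65.5 in the controls. It was 1.69-fold higher (log2 0.76, SE 0.11, adjusted p = 0.00153), with siMCT4 library 3 the highest. TNFRSF1A, the TNF receptor with a death domain, measured 12.8, 12.6 and 11.9 scaled FPKM in siMCT4, against 12.9, 12.7 and 13.0 in the controls. Its log2 change was -0.05 (SE 0.05, adjusted p = 0.505). On the log2(TPM + 1) scale it was 0.15 higher, with an adjusted p of 0.0269. The ratio of TNFRSF1B to TNFRSF1A within a library, chosen after the values were seen, was 9.27 ± 2.01 in siMCT4 and 5.27 ± 0.24 in the controls (SD, n = 3 each).

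The receptors of TRAIL moved in different directions. TNFRSF10A and TNFRSF10B carry the death domain, TNFRSF10D has a truncated one, and TNFRSF10C lacks it; all 4 lie side by side on chromosome 8. TNFRSF10A measured 19.3, 20.8 and 21.0 scaled FPKM in siMCT4, against 14.8, 13.8 and 14.4 in the controls, a 1.42-fold higher level (log2 0.51, SE 0.06, adjusted p = 0.000398). TNFRSF10B measured 13.0, 12.8 and 12.6 scaled FPKM in siMCT4, against 22.8, 23.0 and 22.7 in the controls, a 1.78-fold lower level (log2 -0.83, SE 0.04, adjusted p = 7.29e-06). TNFRSF10D measured 3.80, 3.87 and 3.77 scaled FPKM in siMCT4, against 5.89, 6.23 and 6.69 in the controls, a 1.64-fold lower level (log2 -0.72, SE 0.08, adjusted p = 0.000279). In each of the 3 the libraries of a group lay close together and the groups were well apart. TNFRSF10C had at most 11 counts in any library and was not tested. In scaled FPKM, TNFRSF10A exceeded TNFRSF10B in every siMCT4 library and was below it in every control. The ratio, chosen after the values were seen, was 1.59 ± 0.09 in siMCT4 and 0.628 ± 0.026 in the controls (SD, n = 3 each). Which of the 2 is higher in siMCT4 rests on the gene lengths the authors used. In CPM, which leaves length out, TNFRSF10A was below TNFRSF10B in every library. The siMCT4 values were 60.3, 64.9 and 65.7 CPM for TNFRSF10A and 70.6, 69.9 and 68.8 CPM for TNFRSF10B. The strand setting of the counting is not given in the sources used here. TNFRSF10A overlaps the divergent transcript TNFRSF10A-DT by 632 bases on the opposite strand, which had 540, 629 and 660 counts in siMCT4 and 412, 391 and 482 in the controls. These receptors are also similar in sequence, and how reads that fit several genes were counted is not given.

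TNFRSF9, FAS and TNFRSF11A were higher at low levels. TNFRSF9, the costimulatory receptor CD137, measured 1.83, 1.76 and 1.56 scaled FPKM in siMCT4, against 0.282, 0.258 and 0.259 in the controls. It was 6.43-fold higher (log2 2.68, SE 0.13, adjusted p = 7.47e-06). TNFRSF11A, or RANK, the receptor for the osteoclast factor TNFSF11, had 152, 182 and 186 counts in siMCT4, against 51, 39 and 65 in the controls (log2 1.66, SE 0.24, adjusted p = 0.0012). Every siMCT4 count was more than 2 times the highest control count. FAS, a death receptor, had 160, 116 and 78 counts in siMCT4, against 18, 12 and 23 in the controls (log2 2.68, SE 0.40, adjusted p = 0.00156). Its groups were apart, and on the log2(FPKM + 1) scale the adjusted p was 0.072. The ratio of CPM to scaled FPKM, which follows the length the authors used, was 31.8 for FAS and 1.17 to 12.8 for the other members, so the FPKM of FAS, under 0.1 in every library, is not set against theirs. With siMCT4 library 3 alone the log2 change was 2.02 (adjusted p = 0.0217). FAS also overlaps ACTA2 on the opposite strand, with 38, 28 and 67 counts in siMCT4 and 0, 0 and 4 in the controls, and STAMBPL1 on the same strand, with 57, 35 and 45 counts in siMCT4 and 15, 15 and 5 in the controls.

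TNFRSF12A, the receptor for TWEAK, measured 8.03, 7.98 and 7.45 scaled FPKM in siMCT4, against 6.06, 4.93 and 5.65 in the controls. It was 1.41-fold higher with no overlap (log2 0.49, SE 0.11, adjusted p = 0.00788), and library 3 alone gave 0.44 and an adjusted p of 0.0789. Its transcripts are GC-rich, at 63.7%, and with the GC correction the log2 change was 1.14. TNFRSF14, the receptor HVEM for LIGHT, is as GC-rich, at 63.6%, and measured 2.39, 2.35 and 3.81 scaled FPKM in siMCT4, against 3.46, 3.65 and 3.61 in the controls. Libraries 1 and 2 lay below the controls and library 3 above them, so the difference did not pass (log2 -0.33, adjusted p = 0.201). It was called lower without siMCT4 library 3 (log2 -0.57, adjusted p = 0.000266) and called higher with the GC correction (log2 0.24, adjusted p = 0.0302).

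Of the other receptors, TNFRSF21, a death-domain receptor also called DR6, measured 49.9, 50.8 and 51.0 scaled FPKM in siMCT4, against 49.7, 45.6 and 43.9 in the controls. It did not pass (log2 0.12, SE 0.05, adjusted p = 0.104). TNFRSF21 passed without control library 1 (log2 0.19, adjusted p = 0.0361) and with upper-quartile scaling (adjusted p = 0.0435). On the FPKM and TPM scales it also passed (adjusted p of 0.00368 to 0.0145). LTBR, which binds lymphotoxins and LIGHT, measured 8.93, 8.80 and 9.88 scaled FPKM in siMCT4, against 10.8, 10.2 and 9.69 in the controls. It did not pass (log2 -0.15, adjusted p = 0.108) and was called lower without siMCT4 library 3 (log2 -0.18, adjusted p = 0.029).

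TNFRSF18, or GITR, a T cell receptor, was scarce, with 0, 0 and 7 counts in siMCT4, against 31, 23 and 36 in the controls. It was called lower (log2 -3.71, SE 1.04, adjusted p = 0.0251). The call rested on all but 1 of the libraries. It was lost without siMCT4 library 1 (adjusted p = 0.0634) or 2 (0.0602), without control library 1 (0.081), 2 (0.0664) or 3 (0.0979), and with siMCT4 library 3 alone (log2 -2.19, adjusted p = 0.0583), and the log2 value became -7.92 without siMCT4 library 3. TNFRSF25, the receptor of TL1A, with 60, 49 and 43 counts in siMCT4 against 98, 57 and 56 in the controls, and TNFRSF8, or CD30, with 10, 25 and 0 counts in siMCT4 against 25, 10 and 10 in the controls, did not pass (adjusted p of 0.218 for TNFRSF25 and 0.788 for TNFRSF8). Like TNFRSF10C, the receptors CD27, TNFRSF4, TNFRSF6B, TNFRSF13C, TNFRSF17 and TNFRSF19 were too low to test. TNFRSF19 was found in the same 2 libraries as TNFRSF11B, with 23, 31 and 0 counts in siMCT4 and 0, 0 and 0 in the controls. TNFRSF6B had at most 1 count, while the readthrough gene that contains it, RTEL1-TNFRSF6B, had 172 to 422 counts in siMCT4 and 204 to 307 in the controls.

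The TRAF and BIRC genes held the largest rise of any tested member. BIRC3, a ubiquitin ligase of TNF receptor complexes and a well known NF-kB target, measured 6.13, 5.62 and 6.34 scaled FPKM in siMCT4, against 0.356, 0.454 and 0.415 in the controls. It was 14.8-fold higher (log2 3.88, SE 0.11, adjusted p = 7.01e-07). BIRC2, its close relative and neighbour on chromosome 11, measured 13.8, 13.9 and 15.1 scaled FPKM in siMCT4, against 11, 11 and 9.74 in the controls. It was 1.35-fold higher (log2 0.44, SE 0.07, adjusted p = 0.00183). BIRC2 was the more abundant of the pair in every library, and the ratio of BIRC3 to BIRC2, chosen after the values were seen, was 0.422 ± 0.020 in siMCT4 and 0.0388 ± 0.0055 in the controls (SD, n = 3 each).

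TRAF1 and TRAF5 were the most changed adaptors. TRAF1, which lacks the RING domain of the other TRAFs and binds TRAF2, measured 24.7, 26.1 and 22.0 scaled FPKM in siMCT4, against 6.18, 6.54 and 5.51 in the controls. It was 4.0-fold higher (log2 2.00, SE 0.09, adjusted p = 4.98e-06) and stood above every other TRAF in the siMCT4 libraries, while TRAF3 stood above it in the controls. TRAF5, an adaptor of several costimulatory receptors, measured 3.19, 3.04 and 3.27 scaled FPKM in siMCT4, against 0.526, 0.523 and 0.472 in the controls. It was 6.25-fold higher (log2 2.64, SE 0.09, adjusted p = 1.22e-06), and in both genes the libraries of a group differed far less than the groups.

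The remaining TRAFs differed little. TRAF2, the adaptor that recruits BIRC2 and BIRC3, measured 6.04, 6.16 and 5.86 scaled FPKM in siMCT4, against 4.69, 4.85 and 5.36 in the controls (log2 0.28, SE 0.08, adjusted p = 0.0232). That call was lost without siMCT4 library 1 (adjusted p = 0.0551) or 2 (0.0584), without control library 1 (0.0688) or 2 (0.073), and with siMCT4 library 3 alone (0.129), while with the GC correction the log2 change was 0.70. The ratio of TRAF1 to TRAF2, also chosen after the values were seen, was 4.03 ± 0.24 in siMCT4 and 1.23 ± 0.18 in the controls (SD, n = 3 each). TRAF3, which holds back the alternative NF-kB pathway by promoting the decay of MAP3K14, was the only one called lower. It measured 5.93, 5.77 and 5.88 scaled FPKM in siMCT4, against 7.05, 7.54 and 7.39 in the controls (log2 -0.32, SE 0.05, adjusted p = 0.00123), and on the log2(TPM + 1) scale its change was -0.12 with an adjusted p of 0.117. TRAF4, which was first described in breast tumours, measured 4.52, 4.66 and 3.86 scaled FPKM in siMCT4, against 3.77, 4.74 and 4.66 in the controls. TRAF6, which also serves Toll-like and interleukin receptors, measured 2.74, 2.96 and 3.23 scaled FPKM in siMCT4, against 3.05, 3.09 and 2.73 in the controls. Their groups overlapped and neither passed (log2 -0.01 for TRAF4 and 0.01 for TRAF6, adjusted p of 0.934 and 0.928).

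Summed over the family, scaled FPKM of the ligands came to 87.4 ± 2.4 in siMCT4 and 74.7 ± 0.91 in the controls, and of the receptors to 244 ± 15.6 in siMCT4 and 191 ± 4.5 in the controls (SD, n = 3 each). TNFSF14 made up 59.3% of the summed ligands in siMCT4 and 68.0% in the controls. TNFRSF1B made up 46.8% of the summed receptors in siMCT4 and 35.5% in the controls. The receptor sum in siMCT4 includes TNFRSF11B, at 11.6, 8.68 and 0 scaled FPKM.

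The siMCT4 libraries are set against the mean of the controls one by one in the plot of ratios by library. For BIRC3, TNFSF10, TRAF5, TNFRSF9 and TRAF1 the 3 libraries gave like values. Library 3 stood apart from libraries 1 and 2 for TNFSF9 and TNFRSF14, and library 2 was the lowest for CD70. Of the 21 called members, 16 kept their call without any 1 library and 12 kept it in all 17 other fits. The 12 were BIRC2, BIRC3, TRAF1, TRAF5, TNFSF10, TNFSF13B, TNFRSF10A, TNFRSF10B, TNFRSF10D, TNFRSF11A, TNFRSF1B and TNFRSF9.

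**Figure D4:**
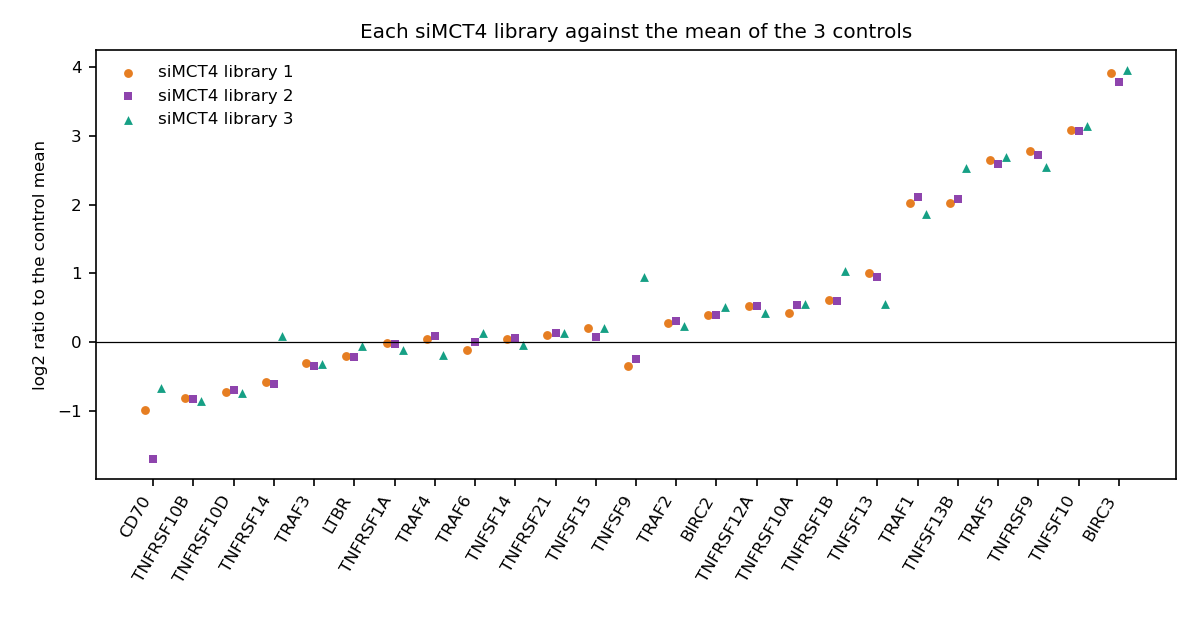
Log2 ratio of each siMCT4 library to the mean of the 3 controls in scaled FPKM. The tested members with a mean of at least 1 are shown, ordered by their log2 change from edgeR. Circles, squares and triangles are siMCT4 libraries 1, 2 and 3; library 3 lies above the control mean for TNFSF9 and TNFRSF14, where libraries 1 and 2 lie below it.

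Some members are neighbours in the genome, and neighbours did not all move alike. On chromosome 19, CD70 was lower, while TNFSF9 and TNFSF14 beside it did not pass. In the cluster on chromosome 6, LTB was lower, TNF did not pass and LTA was too low to test. On the short arm of chromosome 1, TNFRSF9 and TNFRSF1B were higher, TNFRSF18 was lower, TNFRSF14, TNFRSF25 and TNFRSF8 did not pass and TNFRSF4 was too low to test.

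The genes that carry the signal inside the cell were read from a list of 43, all of them tested. Of these, 20 were higher in siMCT4, 7 were lower and 16 did not pass, beside 20.6% higher and 20.8% lower over all genes; their median log2 change was 0.17. Changes of at least 2-fold were called higher for 2 of them and lower for 1, beside 6.36% and 6.71% of all tested genes. TNIP1, which restrains NF-kB together with TNFAIP3, measured 53.2, 53.7 and 58.1 scaled FPKM in siMCT4, against 23.2, 23.7 and 23.5 in the controls (log2 1.23, adjusted p = 2.84e-06). TNFAIP3, the ubiquitin-editing inhibitor A20, measured 26.2, 26.0 and 26.0 scaled FPKM in siMCT4, against 19.2, 17.0 and 16.3 in the controls (log2 0.58, adjusted p = 0.000375). Both inhibitors were higher with no overlap of the groups.

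Of the genes of the death-inducing complex, CASP8, its initiator protease, was higher by 0.89 on the log2 scale (adjusted p = 9.96e-05). CFLAR, which blocks CASP8, was higher by 0.78 (adjusted p = 1.8e-05). RIPK1, the kinase at the branch between survival and death, was higher by 0.66 (adjusted p = 0.00306), and MLKL, the pore-forming protein of necroptosis, by 0.66 (adjusted p = 0.000127). FADD and TRADD, the death-domain adaptors, did not pass, with adjusted p of 0.0621 and 0.934. Genes on both sides of this branch were thus higher, activators and the inhibitor CFLAR alike.

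TRAFD1, which carries a TRAF-type zinc finger, was higher by 1.17 on the log2 scale (adjusted p = 5.24e-05), and TANK, which binds TRAFs, by 0.55 (adjusted p = 6.58e-05). MAP3K5, the stress kinase that TRAF2 activates, was lower, at 8.07, 8.34 and 8.32 scaled FPKM in siMCT4, against 16.2, 16.5 and 14.8 in the controls (log2 -0.94, adjusted p = 1.67e-05). ADAM17, which sheds TNF and its receptors, was higher by 0.38 (adjusted p = 0.000238). In the alternative NF-kB pathway, NFKB2 was higher by 0.19 with an adjusted p of 0.0408. Its call was lost without siMCT4 library 1 (adjusted p = 0.0861) or 2 (0.0913), without control library 2 (0.115) or 3 (0.0715) and with siMCT4 library 3 alone (0.209), while with the GC correction the log2 change was 0.61. MAP3K14 and RELB of the same pathway did not pass, with adjusted p of 0.179 and 0.99.

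**Figure D5:**
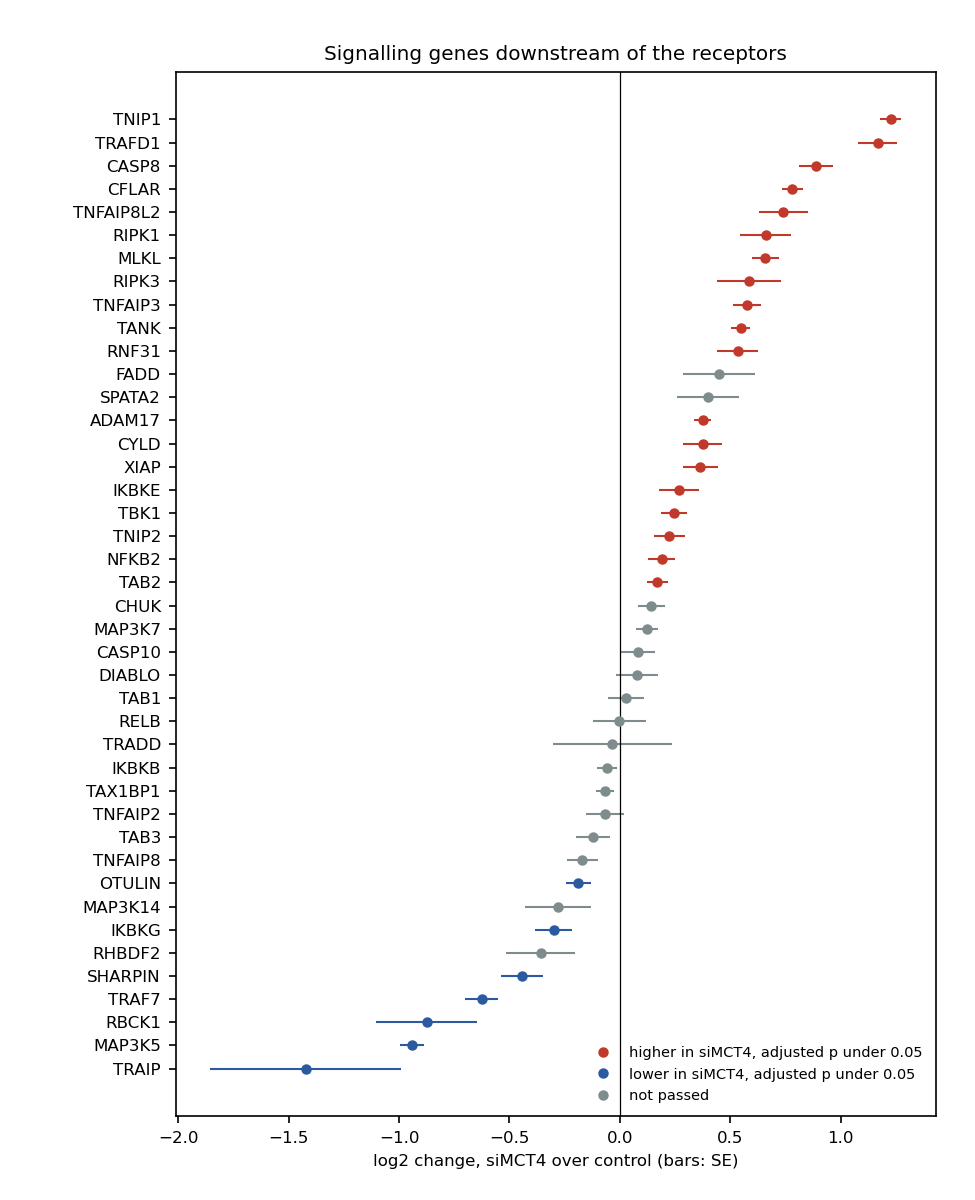
Log2 change, siMCT4 over control, of the listed signalling genes that are reported, from edgeR, with bars for the standard error; red is higher and blue lower at an adjusted p under 0.05, grey did not pass. TNIP1 and TRAFD1 are the highest, at 1.23 and 1.17, and TRAIP, with a wide bar, and MAP3K5 are the lowest, at -1.42 and -0.94.

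Some relatives of these receptors and ligands have symbols outside the choice and were read beside it. CD40, a costimulatory receptor of antigen-presenting cells, measured 9.0, 9.02 and 7.03 scaled FPKM in siMCT4, against 3.34, 3.63 and 3.34 in the controls. It was 2.43-fold higher with no overlap (log2 1.28, SE 0.11, adjusted p = 9.05e-05). NGFR, the neurotrophin receptor with a death domain, was lower at a low level, with scaled FPKM of 0.102, 0.0689 and 0.0798 in siMCT4, against 0.344, 0.453 and 0.286 in the controls (log2 -2.11, SE 0.29, adjusted p = 0.000964), and its log2 change was -1.42 with the GC correction. RELT, a receptor of blood cells, measured 2.65, 2.53 and 3.66 scaled FPKM in siMCT4, against 3.85, 4.64 and 4.06 in the controls (log2 -0.51, adjusted p = 0.0322). The RELT call was lost without siMCT4 library 1 (adjusted p = 0.118) or 2 (0.111), without control library 1 (0.0667), 2 (0.129) or 3 (0.0839), and in 14 of 19 alternatives in all. EDA did not pass (adjusted p = 0.887), EDAR and TNFSF12-TNFSF13 were too low to test, and CD40LG and EDA2R had no entry among the deposited genes.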

How the data were processed

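Polyadenylated RNA of 6 libraries, 3 siMCT4 and 3 control, was prepared with a dUTP protocol and sequenced as paired ends, per the labels' protocols. Cutadapt 1.9 (a read trimmer), HISAT2 2.2.1 (an aligner) and the build GRCh38 are named in the submitters' processing notes. Which tool counted reads, on what annotation and whether by strand is not given in the sources used here. The deposited table holds raw counts, not normalized, and FPKM values made by the authors, per the file headers, for 35009 genes in 12 columns. Total counts per library were 61880619 to 69181938. Among counts of 2 to 41, 58.7% to 60.9% were even, which may mean that both mates were counted.

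Counts were tested with edgeR 4.0.16 (R 4.3.3; TMM scaling, quasi-likelihood test, two-sided, group as sole factor, Benjamini-Hochberg adjustment) after filterByExpr (smallest count 10, smallest total 15), which left 19944 genes. Alternatives used DESeq2 1.42.0, limma 3.58.1 on log2(FPKM + 1), other scalings and filters, and a smooth GC offset from GENCODE 29 transcripts (96.8% of tested genes, 46 of 46 members). The fits were also run on simulated counts with far fewer changed genes than were called here. That run does not measure error rates in these data. Scaled FPKM is the TMM-scaled CPM of a gene multiplied by 1 factor per gene, its summed deposited FPKM over its summed CPM. Ratios between libraries therefore follow the TMM scale, and the mean level of a gene follows the deposited FPKM. CPM uses TMM scaling. SE is of the log2 change. Limits of 0 cover counting error only.

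The members and lists were chosen with earlier results of these data known. Genes named are all members that were called or had a mean of at least 1, the other members with their range, the 10 signalling genes with the smallest adjusted p, 6 taken whatever their values, and all relatives outside the choice. TRADD, FADD, MAP3K14, RELB and TRAIP were named after their values were seen. Some listed genes that this choice would name are not reported here.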

Additional observations from a re-analysis of the deposited data

How the results depend on the processing

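All 21 called members kept their direction in each alternative that tested them, which were 18 for LTB and TNFRSF18 (too low for the filter at a count of 50) and 19 for the others. Calls at an adjusted p under 0.01 numbered 2725 genes higher and 2745 lower, with 3 members lower, and 13 signalling genes higher and 3 lower. At least 2-fold were 1268 genes higher and 1339 lower, 8 members higher and 3 lower, and 2 signalling genes higher and 1 lower. On the TPM scale 6245 genes were higher, and signalling genes called lower numbered 4 there and 4 with no filter on low counts. The members' median log2 change was 0.25 with a filter at a count of 50, 0.23 on log2(FPKM + 0.1), 0.26 on TPM and 0.24 with the GC offset. Without any 1 library, members called lower ranged from 3 (without control 3) to 8 (without siMCT4 3), signalling genes lower from 3 to 7, and the median from 0.15 to 0.22 (without siMCT4 2).

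Correlations between libraries of the same replicate number, after group means were removed, were -0.0616, -0.00295 and -0.0547. With 3 libraries per group, these values cannot decide whether the shared numbers pair the libraries. With the replicate block, 3341 genes were higher and 3580 lower, 13 members higher and 5 lower, and 16 signalling genes higher and 5 lower. SLC16A3 was -3.20, the members' median was 0.13 and 2 relatives outside the choice were called. The block took the call from LTB, TNFSF15 and TRAF2.

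Some genes that did not pass changed sign. With the GC offset the log2 change was 0.28 for TRAF4, -0.043 for TRAF6, 0.028 for LTBR, 0.24 for TNFRSF14, 0.039 for TNFRSF1A, 0.12 for TNFRSF25 and 0.062 for TNFRSF8. On TPM it was 0.18 for TRAF4, 0.046 for LTBR, 0.15 for TNFRSF1A and 0.0064 for EDA. On log2(FPKM + 1) and log2(FPKM + 0.1), TRAF4 was 0.077 and 0.0935 and TNFRSF1A was 0.058 and 0.062. TRAF4 was 0.0048 by DESeq2 and 0.017 with upper-quartile scaling. Library 3 alone gave -0.015 for TNFSF14 and 0.11 for TNFRSF14. Without any 1 library the range was -0.10 to 0.089 for TRAF4, -0.042 to 0.090 for TRAF6, -0.058 to 0.68 for TNFSF4, -0.27 to 0.49 for TNFSF9, -0.048 to 0.0078 for TNFRSF1A, -1.53 to 0.20 for TNFRSF8 and -0.58 to 0.26 for EDA. The cause was not tested. Low counts limit TNF, LTB, TNFSF4, TNFRSF18, TNFRSF25 and TNFRSF8.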
